A study of Mus musculus with 8 samples.

Results

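The cultures transfected with an inhibitor of the microRNA miR-708 were compared with control cultures across all genes whose FPKM reached 1 in at least one of both groups. FPKM count sequenced fragments per kilobase of transcript after scaling by library size, so they are levels per length. Of 18933 genes with values, 12808 met this rule, and the authors' deposited table held a test for 12729 of these. The rule uses only the level, not the direction or size of the change. At its edge, AC103380.1 stood just inside (0.986 FPKM in control and 1.00 FPKM in inhibitor cultures) and Lmo7 just outside (0.949 and 0.999 FPKM).

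The study put mouse cells of the stromal vascular fraction, the cell fraction of fat tissue that holds adipocyte precursors, into 4 groups of 2 samples. These were inhibitors of miR-708, miR-182 and miR-203, all given as locked nucleic acid (LNA) oligonucleotides at 100 nM, and a control transfection whose content the labels do not give. All groups recovered for 8 h in full medium and were then induced with insulin at 850 nM, dexamethasone at 0.5 µM, 3-isobutyl-1-methylxanthine (IBMX) at 250 µM and rosiglitazone. They were kept in insulin at 160 nM and harvested at day 4. The series title speaks of brown adipocytes, but the labels name neither the fat depot, the strain, the age nor the number of animals. Whether paired samples came from separate cultures is not given either, so the spread behind the authors' p-values may be technical. Each group has 1 pooled FPKM per gene, so no value below carries a replicate error, and sequencing depth is not known from these tables. The words rose and fell are kept for genes with q below 0.05 in the authors' deposited table, and a fold is the plain ratio of both pooled FPKM.

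MicroRNAs are short RNAs that guide Argonaute proteins to messenger RNAs, mostly through pairing between the seed near the microRNA's 5′ end and a matching site in the 3′ untranslated region (3′ UTR). Bound messengers are degraded or translated less, so blocking a microRNA is known to raise messengers that it strongly represses. miR-708 is made from an intron of Tenm4, a gene for a large cell-surface teneurin, and the miR-708 and miR-28 hairpins are classed as 1 family because their 5p strands share a seed. The labels do not say which strand of miR-708 the inhibitor was designed against. The mature sequences of both strands, of the seed relative miR-28a-5p and of the other blocked microRNAs are shown because the search for sites rests on them. They are from RefSeq (GRCm38.p6, the same assembly as mm10), read 5′ to 3′, with the seed (bases 2 to 8) in capitals.

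mmu-miR-708-5p: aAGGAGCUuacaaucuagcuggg
mmu-miR-708-3p: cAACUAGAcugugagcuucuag
mmu-miR-28a-5p: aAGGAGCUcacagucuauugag
mmu-miR-182-5p: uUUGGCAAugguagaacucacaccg
mmu-miR-203-3p: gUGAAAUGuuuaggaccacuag

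The strand miR-708-5p lies at chr7:96249450-96249472 and miR-708-3p at chr7:96249496-96249517, both on the plus strand. miR-708-5p and miR-28a-5p have the same seed, AGGAGCU, and a 3′ UTR site found for one is a site for the other. The seeds of miR-708-3p, miR-182-5p and miR-203-3p each differ from it and from each other.

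The change with the miR-708 inhibitor was broad in gene number and modest in size. The authors' deposited table called 603 genes higher (4.74% of those tested) and 412 lower (3.24%), 1015 in all (7.97%). The median fold of called genes was 1.59 among those higher and 1.52 among those lower, and 95 of the former and 64 of the latter changed at least 2-fold. Over all tested genes, 237 (1.86%) had a pooled FPKM at least 2-fold higher and 207 (1.63%) at least 2-fold lower. The log2 ratio below is log2((inhibitor FPKM + 1) / (control FPKM + 1)), which makes changes of low genes look smaller than they are. Its median over all tested genes was -0.019, with 5% of genes below -0.48 and 5% above 0.49. Scaling both groups to an equal sum of FPKM moved that median to -0.156, so list medians are set against the median of all tested genes. Calls were made at every level, taken as the higher of both pooled FPKM. They covered 7.71% of genes at 1 to 2 FPKM, 10.8% at 2 to 5 FPKM and 7.91% at 100 FPKM or more.

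**Figure D1:**
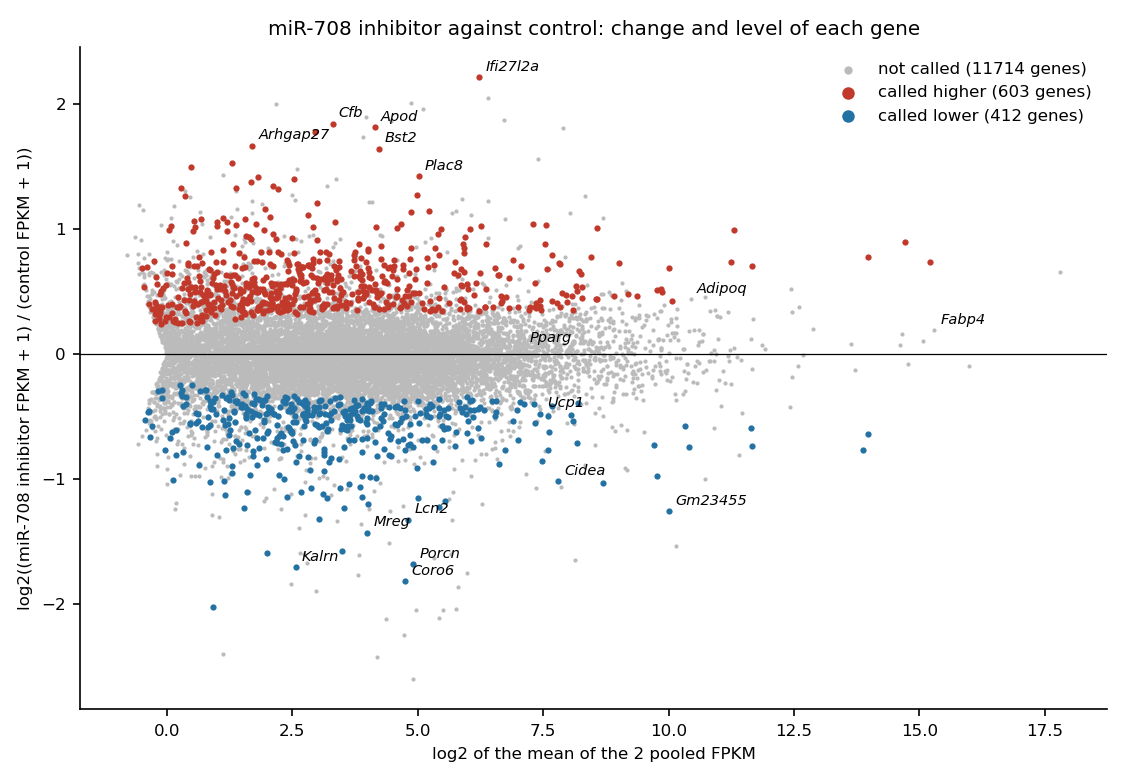
Each point is 1 of 12729 tested genes, with the log2 of the mean of both pooled FPKM on the x axis and the log2 ratio of miR-708 inhibitor to control on the y axis. Red points are the 603 genes called higher and blue points the 412 called lower in the authors' deposited table, and uncalled genes with large ratios lie among them at all levels.

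Among called genes that reached 5 FPKM in at least one group, 7 of the 12 largest rises were in interferon and innate immune genes. Many of these 12, among them Cfb, H2-Q7, H2-Q4, Ifi205 and Ccl8, reached 5 FPKM only with the inhibitor, which favours rises. Ifi27l2a, an interferon-induced gene, rose from 25.9 to 124 FPKM (4.80-fold). Cfb, complement factor B of the alternative pathway, rose from 3.73 to 16.0 FPKM, and Bst2, the antiviral membrane protein tetherin, from 8.53 to 28.8 FPKM. The class I histocompatibility genes H2-Q7 and H2-Q4 rose from 2.94 to 12.5 and from 2.21 to 7.04 FPKM, and their values are uncertain because the H2-Q genes are near-identical copies. Ifi205, of the PYHIN family of nucleic acid sensors, rose from 1.47 to 5.62 FPKM, and Ccl8, a chemokine for monocytes, from 1.32 to 5.04 FPKM. Outside immunity, Apod, a small lipid carrier of the lipocalin family, rose from 7.26 to 28.1 FPKM. Plac8, a cysteine-rich protein, rose from 17.1 to 47.7 FPKM, and Sept6, a septin of the cytoskeleton, from 2.02 to 6.69 FPKM. Fgf13, an intracellular relative of the fibroblast growth factors, rose from 2.72 to 8.83 FPKM. Arhgap27, which switches off small GTPases, rose from 1.03 to 5.46 FPKM (5.30-fold), in a locus that the authors' tables give to 3 genes.

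The 12 largest called falls under the same minimum belonged to varied gene classes. Some of them, such as Car6, Kalrn and Hcn2, reached 5 FPKM only in the control, which favours falls. Coro6, a coronin that binds actin, fell from 42.2 to 11.3 FPKM (3.75-fold), and Kalrn, an exchange factor for small GTPases, from 9.59 to 2.26 FPKM (4.25-fold). Porcn, the acyltransferase that lipidates Wnt proteins for secretion, fell from 46.4 to 13.8 FPKM. Car6, a secreted carbonic anhydrase, fell from 6.47 to 1.48 FPKM and Hcn2, a cation channel gated by voltage and cyclic nucleotides, from 12.2 to 4.28 FPKM. Mreg, which takes part in organelle transport, fell from 23.7 to 8.18 FPKM. Lcn2, a lipocalin that binds bacterial siderophores, fell from 40.6 to 15.6 FPKM, against the direction of most acute phase genes below. Sh2d6 (17.4 to 5.16 FPKM), Rassf7 (16.5 to 6.47 FPKM), Cystm1 (60.1 to 25.3 FPKM) and the zinc finger gene Prdm15 (22.9 to 9.43 FPKM) complete the 12 with Gm23455. The last, a small nucleolar RNA gene, fell from 1454 to 608 FPKM, and FPKM of so short a gene rest on few fragments for their size.

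The comparisons of the 3 inhibitors share the same control values, so their changes from it are not independent, and levels are given side by side. Of the 12 largest rises, Arhgap27 stood apart, at 0.583 FPKM with the miR-182 inhibitor and 0.700 FPKM with the miR-203 inhibitor, both below the control. Fgf13 stood at 6.18 and 3.66 FPKM with those inhibitors, below its level with the miR-708 inhibitor. Ifi27l2a stood at 241 FPKM with the miR-182 inhibitor and 115 FPKM with the miR-203 inhibitor, on both sides of its level with the miR-708 inhibitor. Among the falls, Coro6 stood at 7.79 and 13.99 FPKM, and Porcn at 7.65 and 17.99 FPKM, with the miR-182 and miR-203 inhibitors. No test of one inhibitor against another was possible on these pooled values.

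**Figure D2:**
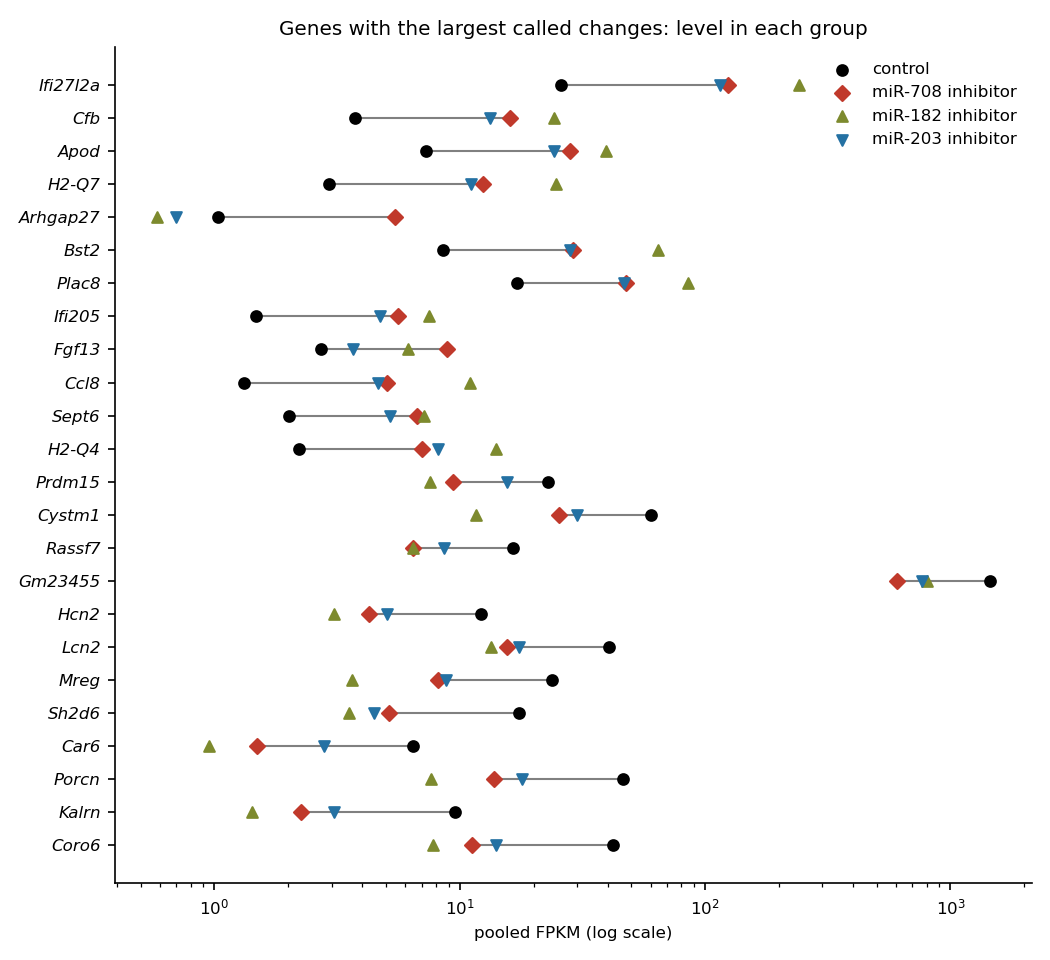
Pooled FPKM (log axis) for the 12 largest called rises and 12 largest called falls reaching 5 FPKM in at least one group. Changes are for the miR-708 inhibitor (red diamonds) against the control (black circles), and triangles are the miR-182 and miR-203 inhibitors. A grey line joins control and miR-708 inhibitor, and for Arhgap27 the other inhibitors lie on the far side of the control.

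Messengers with sites for miR-708 did not stand higher as a class. Sites were searched in the 3′ UTR of 11002 tested genes, of which 5.25% were called higher and 3.48% lower. Site types counted were the 8mer AGCTCCTA (a full seed match followed by A), the 7mer-m8 AGCTCCT and the 7mer-A1 GCTCCTA on the messenger strand, and a gene was placed by its best site. The 244 genes with an 8mer site for miR-708-5p had a median log2 ratio of 0.0011, beside -0.013 for the 9107 genes with no site. Of these 244 genes, 15 were called higher (6.15%) and 7 lower (2.87%), beside 5.47% and 3.43% of genes with no site. The weaker sites lay on the other side, with medians of -0.038 over 1264 genes with a 7mer-m8 site and -0.022 over 387 genes with a 7mer-A1 site. The pooled FPKM was higher than in the control for 50.4% of 8mer genes and for 47.7% of genes with no site. Among genes reaching 5 FPKM in at least one group, 183 had an 8mer site. Their median was -0.027, below the -0.019 of those with no site.

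More sites in a 3′ UTR did not go with a higher ratio either. The median was -0.030 over 1526 genes with 1 site of any type, -0.043 over 289 genes with 2 and -0.023 over 80 genes with 3 or more. Site-bearing genes have longer 3′ UTRs, with medians from 2026 bases (7mer-A1) to 2544 bases (8mer) against 776 bases in genes without a site. Among 3′ UTRs of 2000 to 4000 bases the medians were -0.047 for 674 genes with a site and -0.035 for 1346 without one. Below 500 bases they were 0.067 for 128 genes with a site and 0.0043 for 3314 without one, and 3.12% of the former and 6.13% of the latter were called higher.

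The other strand and the seeds of the other blocked microRNAs gave medians of like size in this comparison. The 213 genes with an 8mer site for miR-708-3p had a median of -0.026, with 8 called higher and 7 lower. The 489 genes with an 8mer site for miR-182-5p stood at -0.037 and the 481 with one for miR-203-3p at -0.026. Against the shared control, 8mer genes of miR-708-5p had a median of 0.023 with the miR-182 inhibitor and 0.0027 with the miR-203 inhibitor. Mature microRNA levels are not in the tables used here, so how far miR-708 was blocked was not tested.

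**Figure D3:**
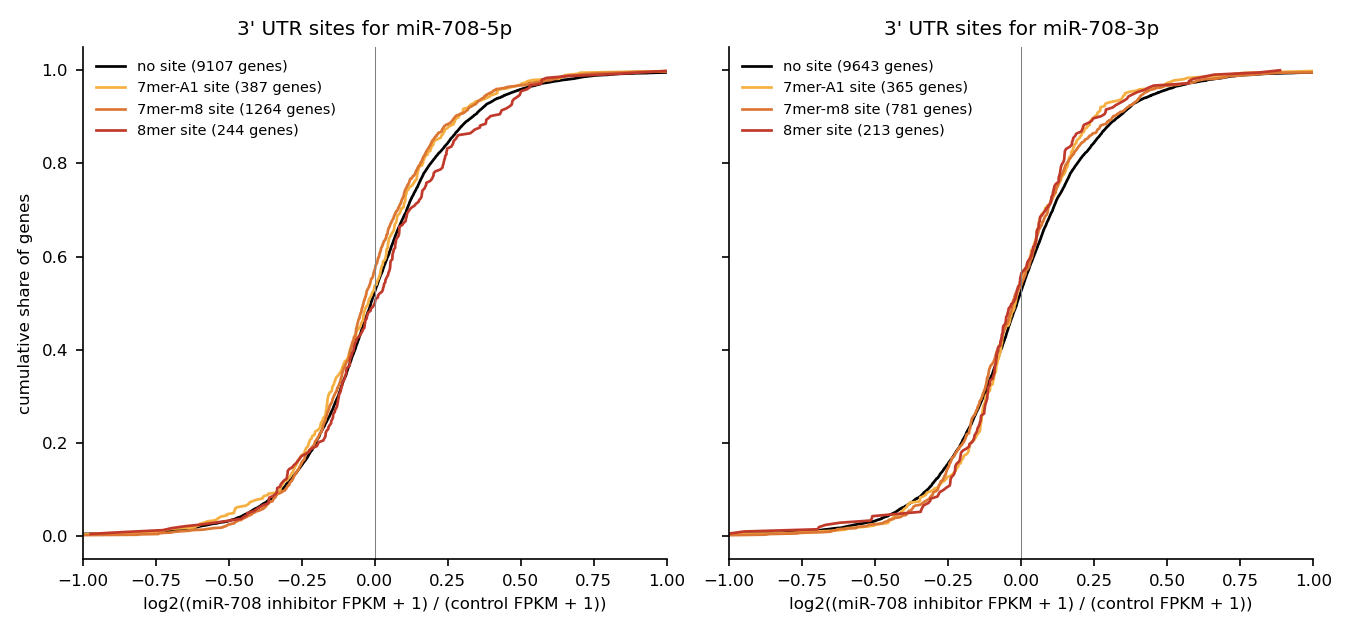
Cumulative share of genes (y axis) by log2 ratio of miR-708 inhibitor to control (x axis, shown from -1 to 1) for genes with an 8mer, 7mer-m8, 7mer-A1 or no site, for miR-708-5p on the left and miR-708-3p on the right. The curves lie close together, with medians between -0.038 and 0.0011.

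Single genes with an 8mer site moved in both directions. The strongest fall in level among them was in Ero1l, the oxidase that drives disulfide bond formation in the endoplasmic reticulum, from 1149.8 to 585 FPKM (1.96-fold, q = 0.00176 in the authors' deposited table). Its 3′ UTR of 2941 bases holds 3 sites, an 8mer at chr14:45285040-45285063 (minus strand, flanks included), a 7mer-A1 and a 7mer-m8. Mvk, mevalonate kinase of the cholesterol pathway, rose from 10.9 to 17.9 FPKM (the authors' deposited table gives q = 0.0395) and has an 8mer and a 7mer-A1 within 286 bases of 3′ UTR. The sites of 3 genes that rose and 2 that fell are printed to show that the same 8 bases stand in messengers that went opposite ways. Each is the messenger strand of mm10, 5′ to 3′, with the 8mer in capitals.

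Mvk, rose: ggccttcgccctggAGCTCCTAtg
Pde1a, rose: tctctccacaggacAGCTCCTAct
Il1r1, rose: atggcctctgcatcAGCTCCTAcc
Ero1l, fell: tcaggccttgcttaAGCTCCTAca
Lgals4, fell: ccgagttccatctaAGCTCCTAat

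These sites lie at chr5:114460349-114460372 (plus strand) for Mvk, chr2:79834756-79834779 (minus) for Pde1a, chr1:40316552-40316575 (plus) for Il1r1 and chr7:28841665-28841688 (plus) for Lgals4. Pde1a, a phosphodiesterase of cyclic nucleotides activated by calmodulin, rose from 8.23 to 12.9 FPKM. Il1r1, the interleukin-1 receptor, rose from 9.19 to 13.4 FPKM, and Nop58, a core protein of small nucleolar ribonucleoproteins, from 16.7 to 25.3 FPKM. Tmem176a (15.8 to 22.6 FPKM) and Pank3, a pantothenate kinase of coenzyme A synthesis (69.9 to 91.3 FPKM), were the other 8mer genes that rose at an FPKM of at least 5. Below that level, C1qtnf1, named here after its values were seen, rose from 1.36 to 3.83 FPKM, which is 2.83-fold and the highest fold of any 8mer gene called. Lgals4, a galectin, fell from 51.4 to 27.9 FPKM. Mfsd10 (58.3 to 38.4 FPKM) and Abcc4, an exporter of cyclic nucleotides and drugs (7.25 to 4.66 FPKM), fell too. Most of these genes stood on the same side of the control with the other inhibitors, for example Ero1l at 323 FPKM and Mvk at 21.4 FPKM with the miR-182 inhibitor and at 623 and 17.0 FPKM with the miR-203 inhibitor.

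Genes that the literature names as miR-708 targets, mostly from human tumour cells, were examined next. Of 27 listed, 24 were measured, with a median log2 ratio of -0.050. The authors' deposited table called 2 of these 24 higher, 1 lower and 21 neither, beside 7.97% of all tested genes called. Of the 26 with a row, 6 had a site for miR-708-5p in the 3′ UTR searched, and 8 in the longest 3′ UTR. Birc5, the mitotic and antiapoptotic protein survivin, rose from 7.83 to 13.8 FPKM, and Mmp2, a gelatinase, rose from 43.6 to 88.3 FPKM. Neither has a site for miR-708-5p in the 3′ UTR searched. With the miR-182 and miR-203 inhibitors Birc5 stood at 17.7 and 13.7 FPKM and Mmp2 at 119.8 and 94.0 FPKM. Both genes were called higher with those inhibitors too. Cntfr, a receptor subunit for ciliary neurotrophic factor with a 7mer-m8 site, fell from 6.13 to 3.60 FPKM (the authors' deposited table gives q = 0.00591). Its level was 3.21 FPKM with the miR-182 inhibitor and 4.68 FPKM with the miR-203 inhibitor. Rap1b, a small GTPase with an 8mer site, stood at 38.9 and 34.5 FPKM in control and inhibitor cultures, and Tmem88, an inhibitor of Wnt signalling with 3 sites, at 7.87 and 7.45 FPKM. Sp1, a transcription factor with 3 sites, stood at 47.2 and 48.1 FPKM. The neuronal proteolipid Nnat stood at 13.3 and 9.64 FPKM and the initiator caspase Casp2 at 7.91 and 6.02 FPKM, and neither was called. For Nnat the 3′ UTR searched was 9 bases long, and its longest 3′ UTR has a 7mer-m8 site. The host gene Tenm4 stood at 29.5 and 18.97 FPKM, with q = 0.0715 in the authors' deposited table. Its level was 20.3 FPKM with the miR-182 inhibitor and 22.7 FPKM with the miR-203 inhibitor. Of the 23 measured rows for microRNA processing and effector genes, among them Dicer1 (6.69 and 6.41 FPKM) and Ago1 (5.24 and 4.88 FPKM), 0 were called.

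Interferon-stimulated genes stood higher with the miR-708 inhibitor. Of 37 measured, the authors' deposited table called 21 of them higher and 0 lower, beside 4.74% and 3.24% of all tested genes. Their median log2 ratio was 0.69, beside -0.019 over all tested genes. Ifitm3 and Ifitm2, membrane proteins that block virus entry, rose from 50.6 to 104 and from 101 to 166 FPKM. Lgals3bp, a secreted glycoprotein, rose from 229 to 365 FPKM, and the immunity-related GTPase Iigp1 from 2.29 to 6.05 FPKM. Isg15, a ubiquitin-like modifier, rose from 1.13 to 3.46 FPKM, and Usp18, which removes it, from 0.350 to 1.70 FPKM. Oasl2 and Rtp4 went from 0.247 to 2.53 and from 0.261 to 2.17 FPKM. Like 11 of the 21 that rose, these stood below 1 FPKM in the control and were measured only through the inhibitor value, which favours rises. Over the 14 members with a mean of at least 5 FPKM the median was 0.41, with 7 called higher and 0 lower. Of the 48 lists with 10 or more measured members its median ranked first, but not at that mean level, where complement stood at 0.66 and matrix glycoproteins at 0.50, nor with a pseudocount of 5, where it stood at 0.28 and collagens at 0.32. The cytosolic RNA sensors Ddx58 (RIG-I) and Ifih1 (MDA5) stood at 3.77 and 5.10 FPKM and at 0.808 and 1.25 FPKM, both uncalled.

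**Figure D4:**
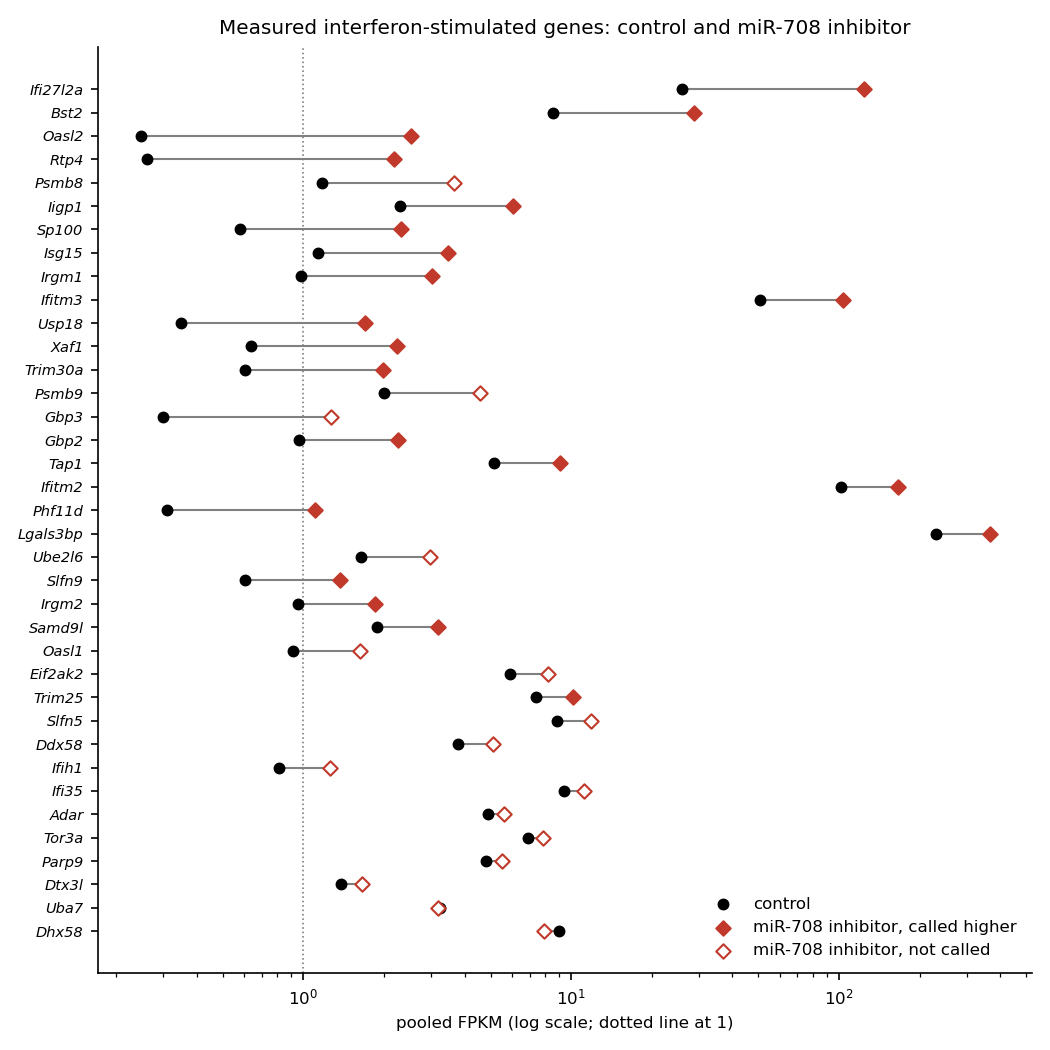
Pooled FPKM on a log axis for the 37 measured interferon-stimulated genes in the control (black circles) and with the miR-708 inhibitor (diamonds, filled for the 21 called higher). The dotted line marks 1 FPKM, and 11 of the filled genes start below it.

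Promoters of these genes are shown because the list's members moved together. The motif GAAANNGAAA, the core of the interferon-stimulated response element, was searched on both strands of windows from 250 bases before to 50 bases after the gene start, and overlapping matches were each counted. It stood in 3.44% of 32851 mouse windows, in 3.54% of the 8647 tested genes with a window, in 8.85% of 407 genes called higher and in 3.82% of 288 called lower. Of the 30 interferon-stimulated genes with a window, 14 held it (46.7%), as did 9 of the 17 of these that rose (52.9%). The choice of an interferon list itself favours such genes, and these 9 are also among the genes called higher counted above. A match is a description of the letters, not a bound site. The windows of Bst2 (chr8:71537423-71537722, minus strand) and Isg15 (chr4:156200769-156201068, minus strand), from RefSeq on GRCm38.p6 and in the gene's direction, are printed with the matches in capitals.

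Bst2: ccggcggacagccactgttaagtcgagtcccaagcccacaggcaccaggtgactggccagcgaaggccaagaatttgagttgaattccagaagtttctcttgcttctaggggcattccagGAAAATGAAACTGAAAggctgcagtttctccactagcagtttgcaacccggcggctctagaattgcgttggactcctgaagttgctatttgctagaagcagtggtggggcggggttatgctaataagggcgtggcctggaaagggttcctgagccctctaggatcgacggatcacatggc
Isg15: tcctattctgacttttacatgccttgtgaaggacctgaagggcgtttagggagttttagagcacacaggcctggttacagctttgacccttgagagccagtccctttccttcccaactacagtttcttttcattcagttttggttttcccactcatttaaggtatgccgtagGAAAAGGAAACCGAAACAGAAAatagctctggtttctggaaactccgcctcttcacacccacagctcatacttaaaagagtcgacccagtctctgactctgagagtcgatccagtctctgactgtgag

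Antigen presentation, complement and chemokine genes stood higher as well, beside 4.74% of all tested genes called higher and 3.24% called lower. Of 26 histocompatibility and antigen presentation genes, the authors' deposited table called 9 of them higher and 0 lower, with a median of 0.34. B2m, the light chain of class I molecules, rose from 253 to 512 FPKM, and the heavy chain H2-D1 from 103 to 212 FPKM. Of 17 complement genes, 7 rose and 0 fell, with a median of 0.38. C3, the central component, rose from 130 to 241 FPKM (the authors' deposited table gives q = 0.0135), and Cfd, the adipocyte protease adipsin that cleaves factor B, from 12.5 to 20.3 FPKM. Of 10 chemokine genes, 4 rose and 0 fell, among them Cxcl12, which holds progenitor cells in their niche, from 9.73 to 18.7 FPKM. Of those 4, 1 stood below 1 FPKM in the control. Only 2 chemokine genes had a mean of at least 5 FPKM, with 1 called higher and 0 lower. Of 14 acute phase and cytokine genes, 6 rose and 1 fell (Lcn2). Saa3, a serum amyloid protein, rose from 18.1 to 45.2 FPKM, and Hp, haptoglobin, from 123 to 252 FPKM. Of 24 nucleic acid sensing genes, 6 rose and 0 fell, and all but Tmem173, the adaptor STING (1.40 to 2.52 FPKM), belong to the PYHIN cluster. Over the 14 members of that list with a mean of at least 5 FPKM, 1 was called higher and 0 lower, and the list median turned from 0.29 to -0.049. In the NF-kappa-B list 2 of 18 rose and 1 fell, with a median of -0.091.

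Macrophages express many of these genes, and macrophage markers are given beside them. Of 12 with a row, 3 were measured and 0 were called, beside 7.97% of all tested genes, and 3 are too few to read that count. Those 3 were Cd68 (3.70 FPKM in control and 2.59 FPKM in inhibitor cultures), Lyz2 (3.32 and 2.34 FPKM) and Fcer1g (2.71 and 1.00 FPKM). The summed level of all 12 was 11.1 FPKM in control and 7.45 FPKM in inhibitor cultures. Whether macrophages had a part in the changes was not tested. Csf1r and Emr1, which define macrophages, stood at 0.169 and 0.118 FPKM in the control and at 0.187 and 0.0364 FPKM with the inhibitor. Lymphocyte markers with a row, Cd3d, Cd4 and Cd8a, all stood below 0.2 FPKM in both groups.

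Genes of precursor cells and of the matrix they secrete stood higher. Of 17 measured progenitor markers, the authors' deposited table called 9 of them higher and 1 lower (Klf2), with a median of 0.62. That median was 0.41 without the FPKM minimum and 0.25 with a pseudocount of 5. Ly6a, the stem cell antigen Sca-1, rose from 29.1 to 59.5 FPKM, and Sfrp1, a secreted Wnt antagonist, from 3.55 to 7.68 FPKM. The preadipocyte factor Dlk1 rose from 58.9 to 93.1 FPKM, and the growth factor receptor Pdgfra from 10.9 to 17.4 FPKM. Zfp423, a preadipocyte transcription factor, stood at 10.9 and 10.5 FPKM, and Itgb1, integrin beta-1, at 69.1 and 76.5 FPKM, and neither was called. In such bulk samples, a larger share of precursor cells and more RNA per cell cannot be told apart.

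Of 45 matrix glycoprotein and crosslinking genes, 20 rose and 1 fell (Ltbp3), beside 4.74% and 3.24% of all tested genes. Their median was 0.49. Mfap4 and Mfap2, of the elastic fibre microfibrils, rose from 4.38 to 11.5 and from 5.22 to 10.8 FPKM. Postn, periostin, rose from 169 to 281 FPKM, Sparc, a collagen-binding matrix protein, from 718 to 1028 FPKM, and Fbn1, fibrillin-1, from 15.1 to 23.9 FPKM. Of 18 collagens, 4 rose and 0 fell, among them Col3a1 from 389 to 646 FPKM and Col1a2 from 253 to 368 FPKM. Of 33 matrix proteases and inhibitors, 13 rose and 0 fell, with Mmp14, which activates Mmp2, from 27.9 to 45.9 FPKM and the inhibitor Timp2 from 20.5 to 37.8 FPKM. Integrins and laminins did not move with them: of 16 measured, Itga11 rose from 2.45 to 3.60 FPKM and Lamb2 fell from 22.9 to 15.1 FPKM.

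Among signalling genes, Sfrp2, another secreted Wnt antagonist, rose from 11.6 to 24.5 FPKM, and 4 of 26 Wnt pathway genes rose with 1 fall, Porcn. Over all tested genes, 4.74% were called higher and 3.24% lower. In the TGF-beta and BMP list 7 of 34 rose and 0 fell, with Tgfbr2, a receptor, from 15.1 to 21.1 FPKM and Bmp1, which trims procollagen, from 17.4 to 28.9 FPKM. Of these 7, 2 stood below 1 FPKM in the control. Over the 22 members with a mean of at least 5 FPKM, 3 were called higher and 0 lower. That list's median of 0.13 turned to -0.015 when the FPKM of both groups were scaled to an equal sum, which shifts all genes alike, and it stood 0.14 above the median of all tested genes under both scalings. Of 25 genes of the FGF and IGF pathways 5 rose and 0 fell, among them the binding protein Igfbp7 from 89.0 to 151 FPKM. Of 16 genes of the imprinted growth network 5 rose and 0 fell, with the noncoding RNA H19 from 41.5 to 77.6 FPKM and the CDK inhibitor Cdkn1c from 16.2 to 34.6 FPKM. Of 10 Notch pathway genes and 22 Hox genes, 0 were called, beside 7.97% of all tested genes. Lists this short would hold few calls at that share.

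Markers of other stromal cells did not move as a block beside the matrix genes. These lists are short, and over all tested genes 4.74% were called higher and 3.24% lower. Of 5 measured smooth muscle and pericyte markers, Mcam and Mylk rose and Cspg4 fell, and all 10 with a row summed to 41.8 FPKM in control and 45.6 FPKM in inhibitor cultures. Acta2, smooth muscle actin, stood at 14.98 and 17.03 FPKM and was not called, and Myh11 and Rgs5 stood below 0.3 FPKM in both groups. The 12 endothelial markers with a row summed to 27.0 and 30.5 FPKM, of which Egfl7 held 22.6 and 23.6 FPKM. Pecam1, below 1 FPKM, was called higher at 0.318 and 0.839 FPKM. Uncalled, Eng stood at 1.13 and 2.31 FPKM, Flt1 at 0.876 and 1.27 FPKM and Tek at 0.236 and 0.633 FPKM, while Kdr and Cdh5 stood below 0.4 FPKM. Of 4 skeletal muscle markers 1 rose (Myl1, 2.00 to 3.86 FPKM) and 1 fell (Des, 5.89 to 3.21 FPKM). Of 3 Schwann cell and neuron markers 1 rose (Ngfr), and the single measured markers of mesothelium, Krt19, and of red blood cells, Alas2, were not called. The part of other cell types in these changes was not tested further.

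Cell cycle genes stood higher with the inhibitor, where 4.74% of all tested genes were called higher and 3.24% lower. Of 50 measured mitosis genes, the authors' deposited table called 26 of them higher and 1 lower (Pttg1, a securin, 80.3 to 58.8 FPKM), with a median of 0.49. Of those 26, 6 stood below 1 FPKM in the control and were measured only through the inhibitor value. Over the 21 members with a mean of at least 5 FPKM, 9 were called higher and 1 lower, with a median of 0.48. Cenpf, a kinetochore protein and one of the 6, rose from 0.668 to 2.53 FPKM, and Mki67, the proliferation marker Ki-67, from 2.34 to 4.60 FPKM. Spc25, of the kinetochore complex that holds microtubules, rose from 5.69 to 10.8 FPKM, and Ccnb1, cyclin B1, from 3.36 to 5.43 FPKM. Of 48 DNA replication genes, 10 rose and 0 fell, with a median of 0.24, and the difference between these lists was not tested. The helicase subunits Mcm6 and Mcm5 rose from 3.10 to 6.23 and from 1.68 to 3.70 FPKM. Tyms, thymidylate synthase, rose from 11.6 to 17.5 FPKM. Pcna, the polymerase clamp, stood at 10.97 and 12.1 FPKM and Cdk1 at 18.8 and 24.3 FPKM, both uncalled. Apart from Pttg1, no called member stood above the replication factor Gins4, which rose from 13.8 to 20.2 FPKM.

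The motif TTTGAA, the cell cycle homology region found in promoters of mitosis genes, was searched in the same windows on both strands. It stood in 17.9% of all windows and in 13.8% of tested genes with one. Of 41 mitosis genes with a window, 30 held it, as did 16 of the 21 of these that rose, and the choice of a mitosis list itself favours such genes. In the 39 DNA replication genes with a window it stood in 6. The window of Mki67 (chr7:135716330-135716629, minus strand, RefSeq on GRCm38.p6) has 2 matches, in capitals.

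Mki67: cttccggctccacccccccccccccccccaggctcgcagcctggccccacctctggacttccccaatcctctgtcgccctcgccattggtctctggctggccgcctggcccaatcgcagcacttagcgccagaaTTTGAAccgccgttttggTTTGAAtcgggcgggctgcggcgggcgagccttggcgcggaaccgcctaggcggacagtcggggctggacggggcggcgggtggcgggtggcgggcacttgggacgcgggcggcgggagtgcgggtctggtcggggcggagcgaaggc

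Genes of the cytosolic ribosome stood slightly higher across the list. Of 83 measured ribosomal protein genes, 80 had a higher pooled FPKM with the inhibitor, the authors' deposited table called 19 of them higher and 0 lower, and the median log2 ratio was 0.29. Over all tested genes, 46.7% had a higher pooled FPKM, and 4.74% were called higher and 3.24% lower. Rps27 rose from 792 to 1276 FPKM and Rpl3 from 131 to 195 FPKM. Classes of short non-coding RNA differed, with a median of -0.32 over 82 small nucleolar RNA genes (0 higher, 1 lower), -0.27 over 57 microRNA hairpin genes (0 called), 0.094 over 17 small nuclear RNA genes (0 called) and 0.064 over 22 mitochondrial transfer RNA genes (4 higher, 2 lower). Of 46 proteasome genes, 0 were called, beside 7.97% of all tested genes.

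**Figure D5:**
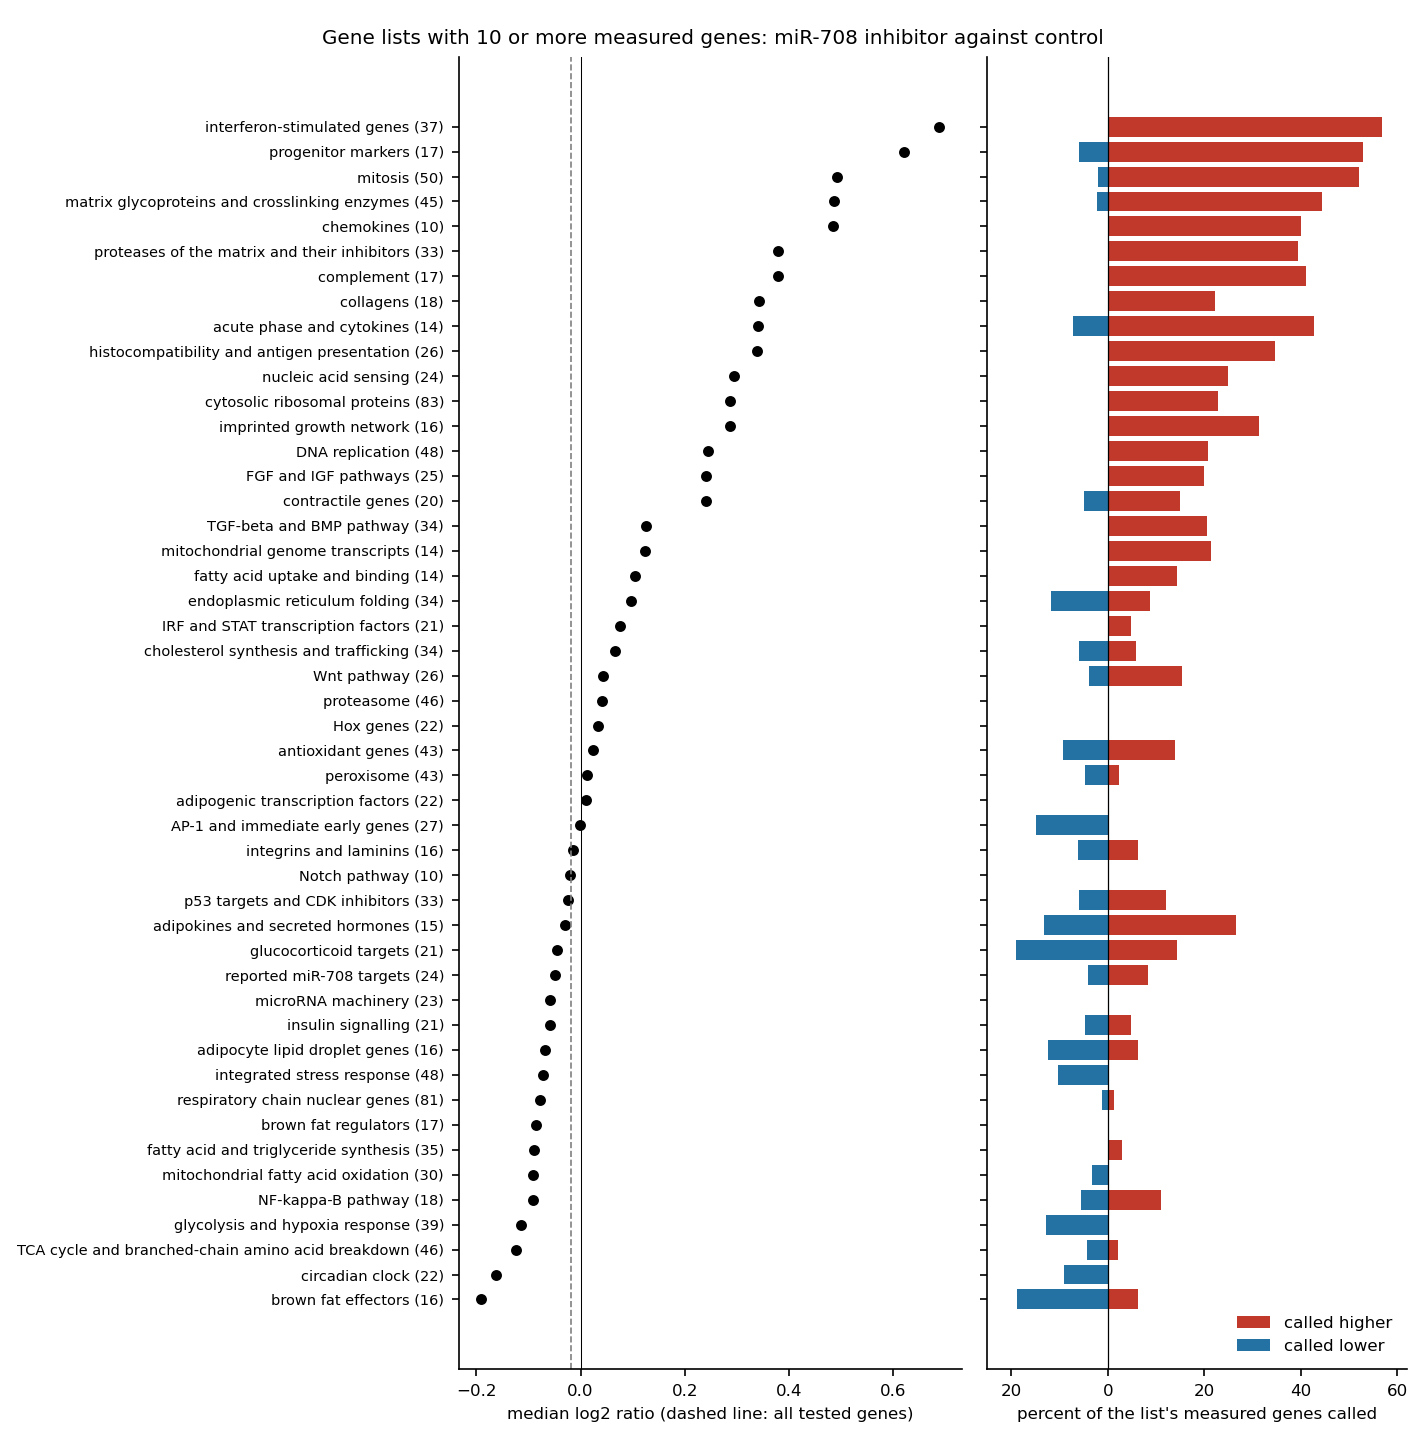
The left panel gives the median log2 ratio of each list with 10 or more measured members (number in brackets), with a dashed line at the median of all tested genes, -0.019. The right panel gives the percent of each list's measured members called higher (red) or lower (blue) in the authors' deposited table, and 56.8% of interferon-stimulated genes were called higher, 11 of the 21 from below 1 FPKM in the control.

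Among thermogenic genes, Cidea and Ucp1 fell. Of 16 brown fat effector genes, the authors' deposited table called 3 of them lower and 1 higher, beside 3.24% and 4.74% of all tested genes, with a median of -0.19. Cidea, a lipid droplet protein of brown fat, fell from 297 to 146 FPKM (2.03-fold), in a locus given to 2 genes, and Ucp1, the uncoupling protein, fell from 203.03 to 146 FPKM (1.39-fold). Aspg fell from 27.7 to 20.5 FPKM, and Otop1, a proton channel, rose from 8.95 to 11.99 FPKM. Of 17 brown fat regulators, 0 were called, where 7.97% of all tested genes were, among them Ppargc1a (23.9 and 22.5 FPKM), Prdm16 (5.40 and 4.91 FPKM), Ebf2 (28.1 and 28.6 FPKM) and Ppara (86.9 and 64.4 FPKM). Of 22 adipogenic transcription factors, 0 were called, with Pparg at 136 and 140 FPKM, Cebpa at 243 and 298 FPKM and Srebf1 at 757 and 731 FPKM. The adipocyte proteins Adipoq (1178 and 1601 FPKM) and Fabp4 (37475 and 42888 FPKM) were uncalled, and their levels were high in both groups. They mark adipocytes of any depot. Ucp1 stood at 67.7 FPKM with the miR-182 inhibitor and 159 FPKM with the miR-203 inhibitor, and Cidea at 56.2 and 157 FPKM.

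Other adipocyte lists are given beside the 4.74% of all tested genes called higher and the 3.24% called lower. Of 16 lipid droplet genes, Mgll, a monoglyceride lipase, rose from 87.2 to 118 FPKM, while Cidea and the droplet coat gene Plin4 (100.2 to 77.3 FPKM) fell. Of 15 adipokine and hormone genes 4 rose, among them Apln, apelin, from 15.3 to 20.3 FPKM and Rarres2, chemerin, from 142 to 188 FPKM, and 2 fell. Of 21 insulin signalling genes, Pik3r1, a regulatory subunit of PI3-kinase, rose from 56.7 to 73.6 FPKM and Trib3 fell. Of 35 genes of fatty acid and triglyceride synthesis, 1 rose (Agpat6, 57.9 to 80.8 FPKM), and of 14 for fatty acid uptake 2 rose, Got2 (98.1 to 127 FPKM) and Acsl5 (7.46 to 10.03 FPKM). Of 7 creatine and calcium cycling genes, 0 were called. Of 21 glucocorticoid targets 3 rose and 4 fell, with the glucocorticoid-activating enzyme Hsd11b1 from 16.8 to 29.1 FPKM among the rises. Of 33 p53 targets and CDK inhibitors 4 rose and 2 fell, with the growth arrest gene Gadd45a from 53.6 to 35.7 FPKM among the falls. Of 20 contractile genes 3 rose and 1 fell.

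For the mitochondrial energy genes below, the shares over all tested genes were 4.74% called higher and 3.24% called lower. Of 81 nuclear respiratory chain genes, Cox6a2, a cytochrome oxidase subunit of muscle and brown fat, fell from 15.1 to 6.66 FPKM, and Atp5g1, a subunit of the ATP synthase ring, rose from 90.9 to 125 FPKM, with a list median of -0.077. Of 14 transcripts of the mitochondrial genome 3 rose and 0 fell, with mt-Co1 from 2460.3 to 4024 FPKM and mt-Rnr2 from 171 to 283 FPKM, and this list's median of 0.12 turned to -0.032 at an equal sum of FPKM. Against the median of all tested genes it stood 0.14 higher as deposited and 0.12 higher at the equal sum. Pdk4, a kinase that holds back pyruvate oxidation, fell from 127 to 68.8 FPKM (the authors' deposited table gives q = 0.0355). Acot2, which releases fatty acids from coenzyme A in mitochondria, fell from 76.8 to 49.2 FPKM, the single call among 30 fatty acid oxidation genes. Of 46 genes of the TCA cycle and branched-chain amino acid breakdown 1 rose and 2 fell, Pdk4 among them. In peroxisomes, Acox3 and Phyh, which act on branched-chain fatty acids, fell from 37.9 to 22.2 and from 109 to 76.6 FPKM.

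Stress-response lists are given beside the 3.24% of all tested genes called lower and the 4.74% called higher. Called members only fell in some of these lists and went both ways in others. Of 48 integrated stress response genes 5 fell and 0 rose, with a median of -0.072. Trib3, a stress-induced pseudokinase, fell from 135 to 79.1 FPKM, Gdf15, a secreted stress hormone, from 8.00 to 3.94 FPKM, and Ddit3, the transcription factor CHOP, from 323 to 222 FPKM. Of 39 glycolysis and hypoxia genes 5 fell and 0 rose, with Ndrg1, a hypoxia-induced gene in a locus given to 3 genes, from 65.1 to 28.3 FPKM and Slc16a1, a lactate carrier, from 141 to 97.0 FPKM. Of 43 antioxidant genes 4 fell and 6 rose. Hmox1, haem oxygenase, fell from 559 to 274 FPKM, and the metallothioneins Mt2 and Mt1 fell from 4052 to 2444 and from 3869 to 2573 FPKM. The peroxidases Gpx7 and Gpx8 of the endoplasmic reticulum rose from 7.36 to 11.99 and from 17.4 to 27.4 FPKM. In the folding list of that organelle 4 of 34 fell, among them Ero1l and the stress sensors Ern1 (8.14 to 5.67 FPKM) and Atf6 (18.8 to 14.1 FPKM), and 3 rose. Npc1, which exports cholesterol from lysosomes, fell from 44.9 to 19.7 FPKM in a locus given to 3 genes, and Idi1 of cholesterol synthesis fell from 22.7 to 15.7 FPKM, while Mvk and Acat2 rose. Of 22 clock genes 2 fell and 0 rose, among them Nr1d2, a nuclear receptor that represses clock genes, from 6.58 to 4.07 FPKM. Of 27 AP-1 and immediate early genes 4 fell and 0 rose, with Fosl2 from 19.2 to 12.7 FPKM and Atf3 from 8.17 to 4.21 FPKM.

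The same genes, set against the shared control, had these list medians with the other inhibitors. The interferon-stimulated genes stood at 0.69 with the miR-708 inhibitor, 1.39 with the miR-182 inhibitor and 0.62 with the miR-203 inhibitor. The matrix glycoproteins stood at 0.49, 0.63 and 0.50, mitosis genes at 0.49, 0.62 and 0.42, and ribosomal proteins at 0.29, 0.26 and 0.19, in that order. Brown fat effectors stood at -0.19, -0.37 and -0.11. Because 1 pooled control enters all these values, a deviation of the control itself would appear in each of them, and its part cannot be told apart from that of the inhibitors.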

How the data were processed

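Messenger RNA was measured in 8 samples (4 groups of 2), and the miR-708 inhibitor and control groups are compared here. Per the submitters' processing notes, TopHat2 2.0.9, Cuffdiff 2.1.1 and mm10 were used; the sources used here give no options, annotation or strand setting. FPKM in the authors' deposited table are taken as 1 pooled value per group. Beside them stand log2 ratios, p-values and q-values by the authors. The smallest of these Cuffdiff p-values was 5e-05 (q = 0.00176, 506 of all 18933 genes with values). Genes with p and q of 1 were taken as untested. Summed FPKM came to 1217430 (control) and 1357335 (inhibitor). Loci listed for several genes held 4792 of the 12808, and reads there may have been divided between genes.

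From these values, log2((inhibitor + 1) / (control + 1)) was computed with Python 3.11.15 and pandas 2.3.3. Members and the 58 gene lists were chosen with earlier results of these data known, and lists are described by counts and medians without a test. "Measured" means tested and at 1 FPKM or more in at least one group. Sites were searched in 3′ UTRs of the GENCODE vM21 transcript with the longest coding sequence, joined by gene identifier. Named genes are the 12 largest called rises and falls at 5 FPKM or more, up to 4 called members per list, reported targets and 8mer genes; further list members were chosen after their values were seen. The scripts were tested on simulated data. A few named genes are not reported here.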

Additional observations from a re-analysis of the deposited data

How the results depend on the processing

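No paired analysis was possible because the deposited columns hold 1 pooled value per group and carry no replicate number, and leaving out a replicate could not be run for the same reason. At the authors' q below 0.01, 391 genes were called higher and 258 lower. Among genes reaching 5 FPKM in at least one group, 374 were called higher. Without the FPKM minimum, with the authors' p-values adjusted over this table alone, or over genes alone in their locus, the counts stayed within 1.5 times those reported. Scaling both groups to an equal sum of FPKM lowered every log2 ratio by about 0.157 for well-expressed genes and moved the median of all tested genes to -0.156, while scaling to an equal upper quartile changed ratios by 0.026. None of the 113 called genes named by rule changed direction under either scaling, whose shifts were smaller than the change of any of these genes. Adding the same pseudocount to both groups, 0.1 or 5, cannot change a direction, so none of these settings could have turned one. Under the equal sum, 12 list medians between 0 and the size of that common shift changed sign, among them those of the TGF-beta and BMP pathway (-0.015), the mitochondrial genome (-0.032), adipogenic transcription factors (-0.13) and endoplasmic reticulum folding (-0.047), and under the equal upper quartile 4 medians near 0 did. Set against the median of all tested genes, no list of the 48 moved by more than 0.1 under either scaling. By that measure 27 list values did under the other settings, 12 of them with a pseudocount of 5, 5 with a pseudocount of 0.1, 6 at a mean of at least 5 FPKM and 4 without the FPKM minimum. With a pseudocount of 5 the medians fell to 0.28 for interferon-stimulated genes, 0.25 for progenitor markers, 0.25 for mitosis, 0.22 for chemokines and 0.15 for complement. The medians by seed site class stayed within 0.1 of those reported with the longest 3′ UTR, the higher FPKM minimum and the smaller pseudocount. That margin is wide, since every such median lay within 0.1 of 0. At the higher FPKM minimum, the miR-708-5p 8mer median less that of genes without a site turned from 0.014 to -0.0082. Pooled values without counts limit these results: neither the spread between samples nor the counting error of a low gene is known.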
